A study of Macaca fascicularis with 48 samples.

Results

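Transcripts of the oxidative phosphorylation system were measured in dorsal root ganglia, spinal cord and liver of cynomolgus monkeys (Macaca fascicularis) after 13 weeks of dosing with GS-8873. The genes were taken by name and place: every protein-coding gene on the mitochondrial chromosome, and every nuclear gene whose name begins as a subunit of 1 of the 5 complexes (NDUF, SDH, UQCR, COX or ATP5 followed by the letter or digit of a subunit). This gave 67 of the 16842 gene names in the count table, of which 13 lie in the mitochondrial genome and 54 in the nuclear genome. The mitochondrial genes encode 7 subunits of complex I, 1 of complex III, 3 of complex IV and 2 of complex V. The nuclear genes encode 27 subunits of complex I, 2 of complex II (SDHB and SDHD), 3 of complex III (UQCRC1, UQCRB and UQCRQ), 8 of complex IV and 11 of complex V. Also matched by name were ATP5IF1, the inhibitor of the ATP synthase, ATP5S, an accessory factor of it, and NDUFA4L2, a paralogue of a complex IV subunit. Other subunits of these complexes, COX4I1, COX7A2, SDHA and SDHC among them, were not among the gene names of the count table and so were not analysed here.

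Animals were given GS-8873, an agent against transcripts of the hepatitis B virus according to the submitters, by oral gavage at 6 mg/kg/day, and controls were given 0 mg/kg/day for the same 13 weeks. Each of 6 tissues (liver, 3 levels of the spinal cord and dorsal root ganglia of 2 levels) gave 4 control and 4 treated libraries, each group with 2 males and 2 females. Animal names in the labels show 10 animals, 4 control and 6 treated: liver and all cord levels came from the same 8, and the treated ganglia partly from others. The same control animals carry replicate numbers 1 to 4 in all 6 tissues, and treated replicate 2 is 1 animal throughout, so results in different tissues are not independent.

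Oxidative phosphorylation makes most of the ATP of cells with high energy demand, such as neurons and hepatocytes. Complexes I, III and IV pump protons across the inner mitochondrial membrane as electrons pass to oxygen, complex II feeds in electrons from succinate without pumping, and complex V uses the proton gradient to make ATP. The mitochondrial genome supplies core subunits of all but complex II, transcribed as long polycistronic RNAs that are cut into the separate messages, while the remaining subunits are nuclear genes whose proteins are imported.

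Totals ran from 35453786 to 53480762 counts per library. Albumin marked liver, with 120329 to 165174 CPM of total counts there (CPM are counts scaled to 1 common library total), and the sodium channel gene SCN10A marked the ganglia, with 85.6 to 583.1 CPM there and at most 0.386 CPM elsewhere. The myelin gene MOG marked cord, except in lumbar cord control 1 and treated 1, where it was 0.258 and 0.087 CPM against 330.0 to 656.6 CPM in the other 6 lumbar libraries. The libraries of treated animal 4 from the cord and the cervical ganglia, and thoracic control 4, had the highest mitochondrial share of their groups, so the median log2 fold changes of those tissues are given with and without control animal 4 and treated animal 4.

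In control animals the mitochondrial messages outweighed the nuclear ones in every tissue, and by the most in spinal cord. The 13 mitochondrial genes took 8.98% ± 1.91 (SD, n = 4) of all counts in liver, 12.4% ± 3.70 in cervical cord, 23.1% ± 11.3 in thoracic cord, 13.6% ± 3.26 in lumbar cord, 8.34% ± 1.05 in cervical ganglia and 9.42% ± 0.925 in lumbar ganglia. The 54 nuclear genes took between 0.413% of counts in cervical cord and 0.622% in lumbar ganglia. The ratio of the mitochondrial to the nuclear share was 29.7 ± 2.24 in cervical cord, 36.1 ± 6.11 in thoracic cord and 28.8 ± 0.365 in lumbar cord (SD, n = 4 each). It was 20.4 ± 4.29 in liver, 13.9 ± 0.823 in cervical ganglia and 15.1 ± 1.43 in lumbar ganglia. The control ranges of the cord levels, 27.2 to 43.5, did not overlap those of liver (17.5 to 26.8) or of the ganglia (13.0 to 17.1), whereas cervical and lumbar ganglia overlapped each other. Per kilobase of exon, the median mitochondrial gene stood at 8130 CPM per kb in liver and 13055 CPM per kb in cervical cord, and the median nuclear gene at 58.6 and 70.9 CPM per kb. In cervical ganglia these medians were 8114 and 97.9 CPM per kb.

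Over the 24 cord libraries the shares of both genomes ran over a wide range together. The mitochondrial share lay between 8.77% and 37.3% of all counts, a 4.25-fold range. The nuclear members took 0.331% to 1.63% of the non-mitochondrial counts, a 4.92-fold range. Spearman's rho between these shares was 0.947 over the 24 libraries, which come from 8 animals and share their library totals, while the share of cytosolic ribosomal protein genes followed the nuclear members with a rho of 0.567. Their ratio moved less, between 21.7 and 43.5. In bulk tissue, fewer mitochondria-rich cells and less mitochondrial RNA per cell cannot be told apart.

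The share of mitochondrial transcripts in liver was lower in treated animals. It was 7.96%, 11.8%, 7.90% and 8.22% of counts in controls 1 to 4 and 7.85%, 6.86%, 6.90% and 7.29% in treated animals 1 to 4. The groups did not overlap, although treated 1 and control 3 lay close together, and control 2 stood above the other 3 controls. The nuclear share overlapped between the groups, with 0.440% ± 0.0163 in controls and 0.469% ± 0.0309 in treated livers (SD, n = 4). The ratio of the 2 genomes was 17.5, 26.8, 18.97 and 18.4 in controls and 15.5, 14.3, 15.2 and 16.7 in treated livers. The 4 treated values lay below the 4 controls, a difference of −0.39 on the log2 scale. Without control 2 this difference was −0.25, and that of the mitochondrial share was −0.802 in place of −1.75 percentage points.

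In the other tissues the treated and control ratios overlapped, so that the separation of the genomes seen in liver was not seen there. The log2 difference of the ratio was −0.06 in cervical cord, −0.24 in thoracic cord, −0.14 in lumbar cord, 0.08 in cervical ganglia and 0.08 in lumbar ganglia. When single libraries were left out it ran from −0.10 to −0.0217, −0.35 to −0.12 and −0.24 to −0.0557 in cervical, thoracic and lumbar cord. In the ganglia its sign depended on single libraries, with −0.0744 to 0.19 in cervical and −0.0133 to 0.16 in lumbar ganglia. In cervical ganglia the nuclear share was higher in treated animals without overlap, 0.507% to 0.640% of counts in controls against 0.651% to 1.84% in treated animals. The upper end was treated animal 4, whose cervical ganglia also held 23.01% mitochondrial counts. That animal's cord libraries held 25.7%, 36.4% and 27.04% mitochondrial counts from cervical to lumbar, against 7.29% in its liver.

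**Figure D1:**
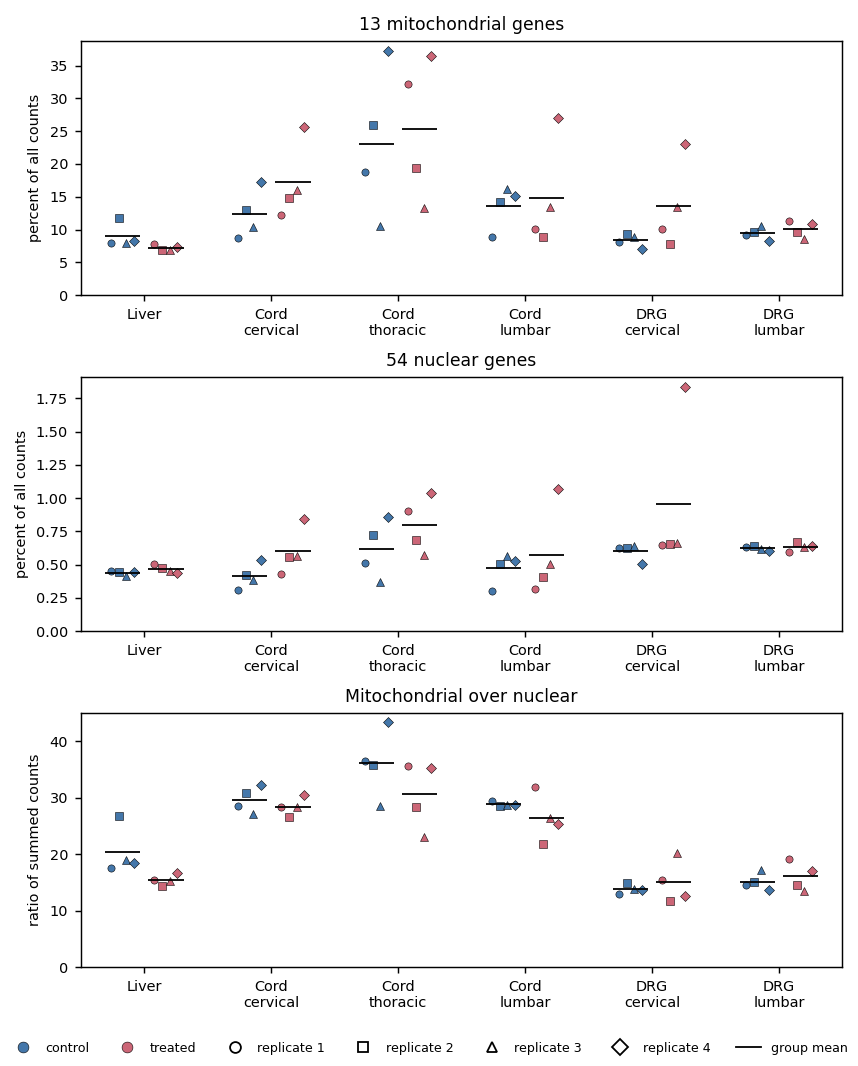
Share of counts from the 13 mitochondrial members (percent), share from the 54 nuclear members (percent) and the ratio of the 2, for every library by tissue. Points are libraries with markers by replicate number, lines are group means (n = 4), and in liver the 4 treated ratios lie below all control ratios.

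Within the mitochondrial messages, the treated animals had relatively more COX2, a catalytic subunit of complex IV, and relatively less ND5, a proton-pumping subunit of complex I. Each gene was expressed as a percent of all mitochondrial counts of its library, which does not depend on how libraries are scaled. Of the 78 pairs of groups (13 genes in 6 tissues), 15 did not overlap, which is 19.2%. For each of these 15 the two-sided exact permutation test gave p = 0.0286, the smallest that 4 against 4 libraries allow. None passed 0.05 after Benjamini-Hochberg adjustment over the 78, where the smallest adjusted p was 0.149 from the same permutation tests.

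COX2 lies between COX1 and ATP8, at positions 7540 to 8223 of the mitochondrial chromosome in the Macaca_fascicularis_5.0 annotation of the count table. In liver it made up 6.88%, 5.99%, 6.51% and 5.85% of mitochondrial counts in controls and 9.92%, 10.8%, 8.75% and 8.90% in treated animals. In cervical cord it was 7.53%, 7.25%, 7.58% and 6.05% in controls and 8.68%, 10.8%, 8.82% and 9.82% in treated animals. The 4 treated values lay above the 4 controls in both tissues. The same separation was seen in thoracic cord (7.27% to 8.36% against 8.86% to 11.97%) and in cervical ganglia (6.71% to 8.31% against 9.78% to 12.3%). In lumbar cord and lumbar ganglia the groups overlapped only through treated library 3, which is the same animal in both, with 7.36% and 8.29%; the other 3 treated libraries of each lay above all controls there. Leaving out any 1 library left the difference in COX2 above 0 in all 6 tissues, from a lowest value of 1.34 percentage points in lumbar ganglia.

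ND5, at positions 12336 to 14147, is among the least abundant mitochondrial messages per length. It made up 7.05%, 6.50%, 7.55% and 7.59% of mitochondrial counts in control livers and 1.73%, 4.78%, 6.45% and 4.43% in treated livers. In cervical ganglia it was 7.43%, 7.79%, 7.63% and 7.69% in controls and 5.02%, 6.58%, 5.59% and 1.57% in treated animals. The treated values lay below all controls in both, with a wide spread among treated animals: treated animal 1 was lowest in liver and treated animal 4 in cervical ganglia. Cervical cord was also separated (5.38% to 6.46% against 2.77% to 4.39%). In lumbar cord the groups overlapped, with 3 treated values of 6.18% to 6.38% and 2.48% in treated animal 4, and the sign of the difference there depended on that library, with a range from −1.27 to 0.03 percentage points when single libraries were left out.

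ND6 is the subunit of complex I read from the opposite strand, at positions 14148 to 14675, directly after ND5. Its share was lower without overlap in cervical ganglia, 2.40% to 2.94% in controls against 1.05% to 2.32% in treated animals. In liver the groups overlapped, with 2.31% to 3.32% in controls and 0.506% to 2.80% in treated animals. Treated animal 1, the lowest for ND5 in liver, was also the lowest there for ND6. Reads were counted without regard to strand, so reads of ND6 and of RNA opposite to it cannot be told apart.

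The other pairs that did not overlap concerned ATP6 and COX3, higher in treated ganglia of both levels, ND4L, higher in treated liver and lumbar ganglia, and ND1, lower in treated lumbar ganglia. ATP6 encodes the proton channel subunit of complex V and COX3 a core subunit of complex IV. ATP6 was 8.33% to 8.92% of mitochondrial counts in control lumbar ganglia and 9.08% to 12.9% in treated ones. Treated animal 2 had the highest ATP6 share of its tissue in all 6 tissues, from 12.6% to 19.3%, and its COX1 share lay between 10.1% and 15.1%. ATP6 overlaps ATP8 by 46 bases and ND4 overlaps ND4L by 7 bases, so the division of reads within these pairs depends on the counting.

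**Figure D2:**
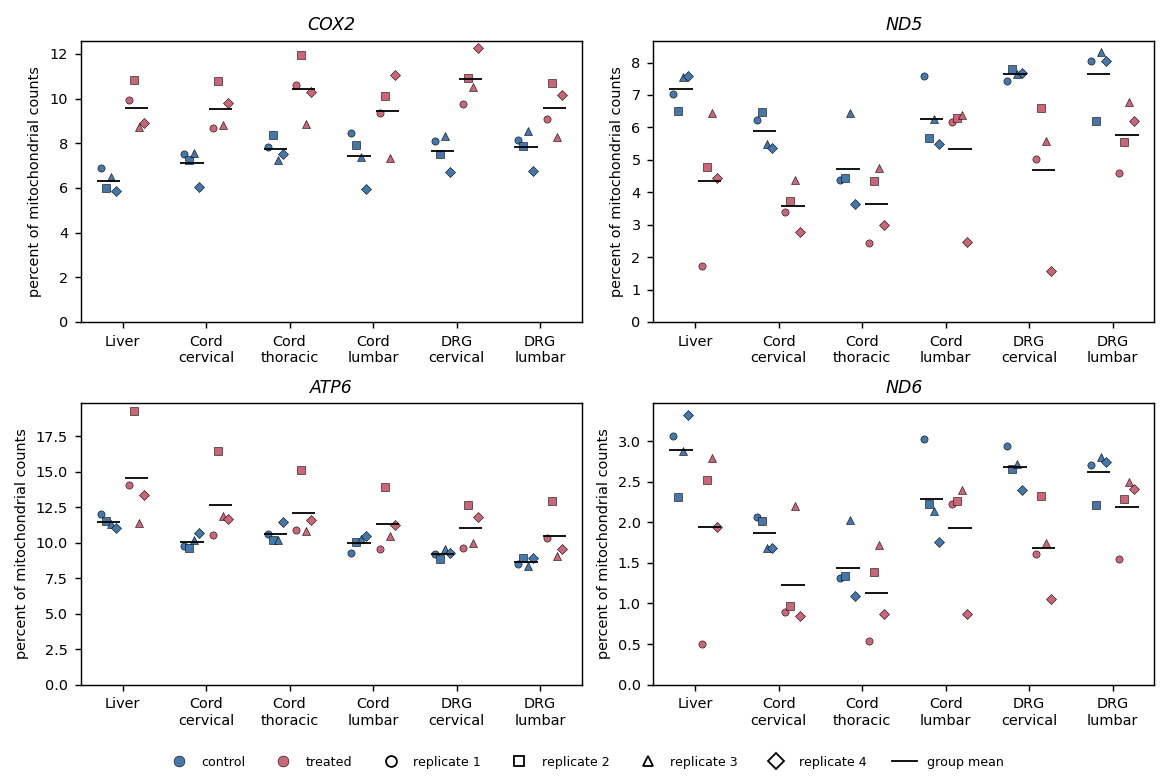
COX2, ND5, ATP6 and ND6 as a percent of the mitochondrial counts of each library, by tissue. Points are libraries with markers by replicate number and lines are group means (n = 4); COX2 lies higher in treated libraries without overlap in 4 tissues, and ND5 lower without overlap in 3.

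In liver, mitochondrial transcripts were lower in treated animals relative to the rest of the transcriptome, and nuclear subunits differed much less. The median log2 fold change was −0.50 over the 13 mitochondrial genes and −0.03 over the 50 nuclear genes tested, against 0.01 over all 12609 genes. With total counts as the scale these were −0.31, 0.15 and 0.18. In the main fit most nuclear members were negative, whereas their median was positive with total counts as the scale. Positive values in the main fit were held by 8 of 23 with an exon length up to 752 bases and 7 of 27 longer ones. In that fit 51.9% of all genes were positive. The mitochondrial median ran from −0.63 to −0.26 when single libraries were left out, with −0.26 without control 2 and −0.27 without treated 2. Every mitochondrial gene but COX2 had a negative log2 fold change, with ATP6 turning to 0.02 when libraries were scaled by total counts. For 6 of the 13 the treated libraries lay below all controls (ND2, COX1, ND3, ND5, ND6 and CYTB), where 3.09% of all genes did so. None of the 63 members passed an adjusted p of 0.05 in edgeR's quasi-likelihood test, and 0% of all genes did. At an unadjusted p under 0.05 stood 6 mitochondrial and 4 nuclear members, against 8.32% of all genes. limma voom called none either, whereas DESeq2 called 4 members, all mitochondrial, among 187 genes. On simulated liver counts with 2-fold changes DESeq2 made 15 false calls and edgeR 4.

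ND5 in liver was 5940, 8678, 6165 and 6457 CPM in controls, scaled by edgeR's trimmed mean of M-values (TMM), and 1263, 3153, 4178 and 3013 TMM-scaled CPM in treated animals. The highest treated library lay below the lowest control. The log2 fold change was −1.27 ± 0.33 (SE; edgeR adjusted p = 0.37; DESeq2 adjusted p = 0.0049). ND3, another complex I subunit, was 1301, 1716, 1125 and 1537 TMM-scaled CPM in controls and 860.0, 798.6, 862.5 and 893.9 TMM-scaled CPM in treated livers. Its treated values lay within a narrow band below all controls, and its log2 fold change was −0.73 ± 0.15 (SE; edgeR adjusted p = 0.28; DESeq2 adjusted p = 0.0005). COX1, the catalytic core of complex IV, was 13388, 24410, 16084 and 15107 TMM-scaled CPM in controls against 10780, 7203, 11524 and 9985 TMM-scaled CPM in treated livers. Control 2 stood above the other controls, as it did in the total share, and the log2 fold change was −0.80 ± 0.23 (SE; edgeR adjusted p = 0.40; DESeq2 adjusted p = 0.0341). COX2 differed from these: 5798, 8000, 5318 and 4978 TMM-scaled CPM in controls and 7258, 7140, 5667 and 6049 TMM-scaled CPM in treated livers, overlapping groups with a log2 fold change of 0.12.

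Among nuclear subunits in liver, ATP5F1B, the catalytic beta subunit of the ATP synthase, and NDUFA7, of complex I, were the only ones whose groups did not overlap; NDUFA7 lay above all controls, where 2.05% of all genes did so, with a log2 fold change of 0.09. ATP5F1B was 381.8, 372.2, 358.2 and 350.2 TMM-scaled CPM in controls and 326.4, 315.2, 317.3 and 292.8 TMM-scaled CPM in treated livers. Its log2 fold change was −0.22 ± 0.086 (SE; edgeR adjusted p = 0.53), and −0.05 when libraries were scaled by total counts. SDHD, the membrane anchor of complex II, and NDUFA5, of complex I, had log2 fold changes of −0.25 and −0.22 with overlapping groups (edgeR adjusted p = 0.53 for both). LRPPRC, which stabilises mitochondrial messages, was 315.8 ± 15.8 TMM-scaled CPM in controls and 232.3 ± 15.8 TMM-scaled CPM in treated livers (SD, n = 4), with a log2 fold change of −0.44 ± 0.086 (SE; edgeR adjusted p = 0.25). TFAM and POLRMT, which package and transcribe mitochondrial DNA, had log2 fold changes of 0.07 and −0.25 (edgeR adjusted p = 0.917 and 0.749). The hepatocyte markers, 6 of 6 in the table, summed to 190740 to 211750 CPM of total counts in control livers and 165801 to 178384 CPM in treated livers, without overlap. Albumin carried that difference, with 146829 to 165174 CPM against 120329 to 129422 CPM, and the other 5 markers overlapped. The 2 markers of satellite glia in the table summed to 130.2 to 164.4 CPM in control and 176.3 to 224.0 CPM in treated livers. That sum was ERBB3 almost alone, as FABP7 was at most 0.314 CPM in liver. The part of these lists in the liver result was not tested.

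In cervical cord most nuclear subunits had higher values in treated animals, but none passed the test. Of the 51 nuclear members tested, 47 had a positive log2 fold change with a median of 0.60, against 0.38 over the mitochondrial members, and 50.5% of all genes were positive. Adjusted p was above 0.05 for all 64 members in edgeR, limma voom and DESeq2, and 0% of all genes passed in edgeR. At an unadjusted p under 0.05 stood 18 nuclear and 1 mitochondrial members, where 9.53% of all genes did. In 4 nuclear members the treated libraries lay above all controls (ATP5F1D, NDUFA11, NDUFS7 and COX7A1), where 3.16% of all genes did, and in none below all controls, where 2.91% did. ATP5F1D, the delta subunit of the ATP synthase, was 20.5, 26.2, 20.5 and 33.5 TMM-scaled CPM in controls and 33.8, 38.2, 47.9 and 95.7 TMM-scaled CPM in treated animals. Treated animal 4 was far above the others, and the lowest treated value lay just above the highest control. The log2 fold change was 1.02 ± 0.29 (SE; edgeR adjusted p = 0.50). Genes of the mitochondrial ribosome (57 of 61 positive, median log2 fold change 0.41) and of the cytosolic ribosome (49 of 49 positive, median 0.44) had positive values in the same fit. Endothelium and pericyte markers, 5 of 5 in the table, were lower without overlap, with a summed level of 223.8 to 315.7 CPM of total counts in controls and 104.1 to 210.7 CPM in treated animals. RGS5 was lower without overlap, and PECAM1, CLDN5, VWF and CDH5 overlapped. The part of these lists in the result was not tested.

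Without control animal 4 and treated animal 4 the median log2 fold change in cervical cord was 0.32 over mitochondrial and 0.43 over nuclear members.

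In thoracic and lumbar cord no member passed an adjusted p of 0.05 in edgeR, limma voom or DESeq2, and 0% of all genes passed in edgeR. At an unadjusted p under 0.05 stood 1 member in thoracic cord, ATP5S, where 2.33% of all genes did, and 0 in lumbar cord, where 1.74% did. ATP5S was also the only member of the thoracic cord whose groups did not overlap, lying below all controls with a log2 fold change of −0.48 ± 0.18 (SE; edgeR adjusted p = 0.981), where 1.17% of all genes lay lower and 0.855% higher without overlap. In lumbar cord no member's groups were apart, where 0.738% of all genes lay higher and 0.884% lower. The median log2 fold change was 0.01 over mitochondrial and 0.30 over nuclear members in thoracic cord, and 0.02 and 0.31 in lumbar cord. Without control animal 4 and treated animal 4 the lumbar medians turned to −0.42 and −0.24, so their direction rests on those animals, while the thoracic medians were 0.22 and 0.47. When single libraries were left out the thoracic medians ran from −0.36 to 0.67 and from 0.0454 to 0.82, so the sign of the mitochondrial one depends on single libraries. Without lumbar control 1 and treated 1, the libraries nearly free of MOG, the lumbar medians were 0.05 and 0.43. With counts summed over the cord levels of each animal, the medians were 0.20 and 0.47, or 0.08 and 0.26 without those animals; the mitochondrial median turned to −0.21 without treated animal 4 alone. There was again no member past the threshold in edgeR or DESeq2 and none at an unadjusted p under 0.05, where 3.49% of all genes stood. A test of whether the treatment difference varied between cord levels used limma voom with the animal as random block (14748 genes). It gave no member with an adjusted p under 0.05 and none with an unadjusted p under 0.05.

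In lumbar ganglia 1 of the 64 members tested passed the test: ATP5F1B fell. In the same comparison 4.29% of all 14267 genes passed, 3.65% lower and 0.638% higher. ATP5F1B, at 11:55598292-55608293 on the minus strand of Macaca_fascicularis_5.0, was 685.0, 662.2, 610.5 and 565.4 TMM-scaled CPM in controls and 391.0, 382.9, 425.8 and 471.8 TMM-scaled CPM in treated animals. The treated libraries all lay below the lowest control. The mean fell from 630.8 ± 53.6 to 417.9 ± 40.5 TMM-scaled CPM (SD, n = 4), and the log2 fold change was −0.59 ± 0.12 (SE; edgeR adjusted p = 0.034). The log2 fold change stayed between −0.55 and −0.67 when single libraries were left out, but the adjusted p rose above 0.05 in edgeR without control 1, 2 or 3 or without treated 2, 3 or 4, reaching 0.124 at most. With the replicate number as a block it was 0.0832 in edgeR.

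Relative to the other nuclear subunits, ATP5F1B was lower in treated lumbar ganglia while ATP5F1C and ATP5ME were higher. ATP5F1B and ATP5F1A form the alternating beta and alpha ring of the ATP synthase head, ATP5F1C is the gamma shaft within it, and ATP5ME is a small subunit of the membrane part. As a percent of the counts of all nuclear members, ATP5F1B in lumbar ganglia was 9.87%, 9.55%, 9.29% and 9.15% in controls and 7.07%, 6.03%, 7.38% and 7.78% in treated animals. ATP5F1A was 15.7%, 15.4%, 13.8% and 15.03% in controls and 14.7%, 12.5%, 14.2% and 15.6% in treated animals. The ATP5F1B groups were apart and the ATP5F1A groups overlapped. ATP5F1C was higher without overlap, 3.61% to 3.97% in controls against 4.28% to 4.73% in treated animals. ATP5ME was 1.44% to 1.63% in controls and 1.79% to 2.19% in treated animals. Over all tissues, 42 of 324 pairs of groups of nuclear members, or 13.0%, did not overlap on this measure.

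On the same measure ATP5F1B was also lower without overlap in liver (7.47% to 8.32% against 6.86% to 7.42%) and in cervical ganglia (8.21% to 10.1% against 4.12% to 7.61%). In the cord it overlapped at all 3 levels. ATP5F1C was higher without overlap in liver (4.34% to 4.67% against 4.79% to 5.26%) and in cervical ganglia (3.69% to 4.15% against 4.15% to 4.98%), where treated animal 4 lay just above the highest control.

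**Figure D3:**
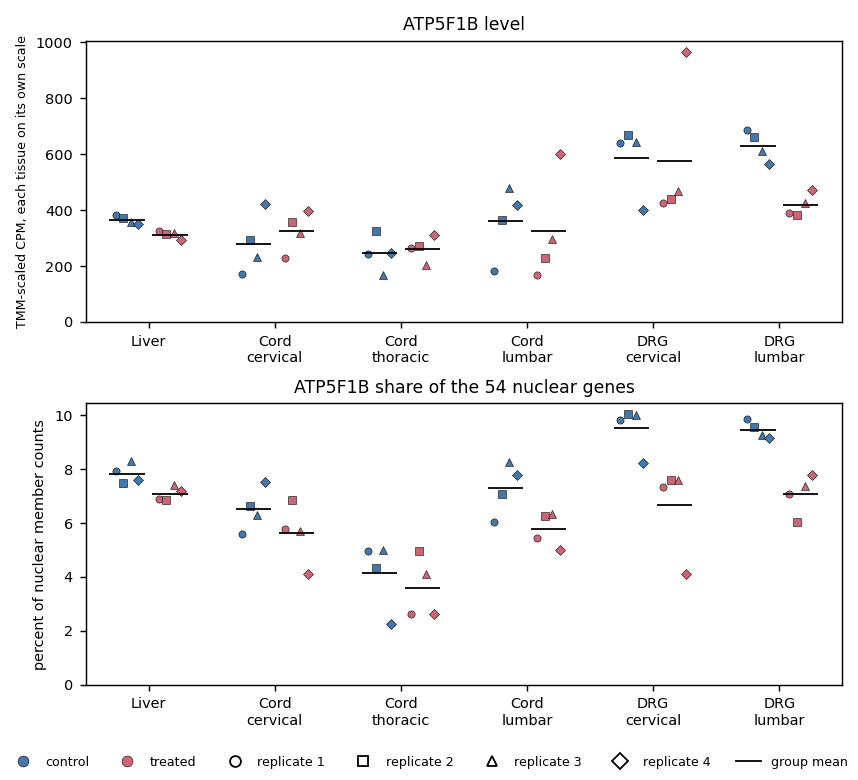
ATP5F1B in every library as TMM-scaled CPM, each tissue on its own scale, and as a percent of the counts of all nuclear members. Points are libraries with markers by replicate number and lines are group means (n = 4); treated libraries lie below all controls in lumbar ganglia and liver on both measures, and in cervical ganglia on the second.

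Of the other nuclear subunits in lumbar ganglia, 8 lay below all controls without passing the test: NDUFB4, NDUFB5, NDUFS1, NDUFA9, NDUFA10 and NDUFV1 of complex I, UQCRC1 of complex III, and ATP5S. With ATP5F1B this makes 9 of 51, where 9.35% of all genes lay below all controls. ATP5ME was the 1 member above all controls, where 7.38% of all genes lay, with a log2 fold change of 0.21 ± 0.10 (SE; edgeR adjusted p = 0.251). NDUFB4, an accessory subunit of the membrane arm, was 149.1, 150.0, 138.5 and 128.4 TMM-scaled CPM in controls and 102.6, 126.1, 108.1 and 102.7 TMM-scaled CPM in treated animals. The highest treated library lay just below the lowest control. The log2 fold change was −0.36 ± 0.088 (SE; edgeR adjusted p = 0.0596). NDUFS1, the largest iron-sulphur subunit of complex I, was 167.3, 172.8, 122.6 and 140.0 TMM-scaled CPM in controls and 105.4, 106.3, 111.3 and 120.0 TMM-scaled CPM in treated animals. Its log2 fold change was −0.43 ± 0.12 (SE; edgeR adjusted p = 0.0827). Of the mitochondrial genes only ND5 lay below all controls, with 8122, 6486, 9370 and 6821 TMM-scaled CPM in controls and 4874, 5117, 5282 and 6390 TMM-scaled CPM in treated animals. Its log2 fold change was −0.51 ± 0.16 (SE; edgeR adjusted p = 0.12; DESeq2 adjusted p = 0.0099).

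Over all members in lumbar ganglia the median log2 fold change was −0.05 for the mitochondrial and −0.08 for the nuclear genes, both positive (0.14 and 0.11) with total counts as the scale, against 0.05 over all genes, or 0.24 on that scale. Positive values were found for 5 of 13 mitochondrial and 14 of 51 nuclear members, where 56.3% of all genes were positive. At an unadjusted p under 0.05 stood 1 mitochondrial and 9 nuclear members, where 22.6% of all genes did. General neuron markers were lower in treated lumbar ganglia without overlap, with a summed level of 3747 to 4544 CPM of total counts in controls and 2365 to 3282 CPM in treated animals. All 5 listed genes were in the table; SNAP25 and STMN2 were lower without overlap, while SYT1, RBFOX3 and ELAVL4 overlapped. The sensory neuron markers, 4 of 5 in the table, overlapped, with a summed level of 2021 to 2394 CPM in controls (median 2195) and 1256 to 3220 CPM in treated animals (median 2420). The 2 satellite glia markers in the table summed to 216.9 to 350.0 CPM of total counts in controls and 379.9 to 484.4 CPM in treated animals. ERBB3 was higher without overlap, 134.6 to 249.3 CPM in controls against 269.6 to 351.4 CPM in treated animals, while FABP7 overlapped. Genes of the cytosolic ribosome had a positive log2 fold change in 48 of 49. The part of these in the result for ATP5F1B was not tested.

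In cervical ganglia no member passed the test, and animal 4 of each group stood apart from the other 3. Adjusted p was above 0.05 for all members in edgeR, limma voom and DESeq2, and 0% of all genes passed in edgeR. At an unadjusted p under 0.05 stood 1 nuclear member, COX7A1, where 7.35% of all genes did. The median log2 fold change was 0.55 over mitochondrial and 0.83 over nuclear members, and 47 of the 51 nuclear members were positive, where 56% of all genes were. ATP5ME and NDUFB1 lay above all controls, where 2.2% of all genes did, and ATP5S below them, where 3.28% did. Without control animal 4 and treated animal 4 these were 0.03 and −0.10. ATP5F1B was 639.7, 668.8, 642.7 and 401.9 TMM-scaled CPM in controls 1 to 4 and 426.8, 441.4, 470.1 and 966.1 TMM-scaled CPM in treated animals 1 to 4. Animals 1 to 3 of each group were apart, with treated values below controls, and animal 4 was reversed in each. The log2 fold change was −0.07 with all libraries and −0.57 without animals 4 (edgeR adjusted p = 0.974 and 0.0212). That exclusion was made after seeing these values. It removed the lowest control and the highest treated library for ATP5F1B, so the adjusted p without them cannot serve as a test. The summed general neuron markers overlapped between the groups (2474 to 4395 CPM of total counts in controls, 1783 to 3175 CPM in treated animals), as did the sensory neuron markers (1735 to 2383 CPM against 600.3 to 2443 CPM), and genes of the cytosolic ribosome had a positive log2 fold change in 49 of 49. Their part in the result was not tested.

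With the ganglia of both levels fitted together and the animal as a random block in limma voom, no member passed the test, while 0.943% of 14535 genes did, 135 of 137 of them lower. edgeR on counts summed per animal called none either. At an unadjusted p under 0.05 in limma stood 1 mitochondrial and 2 nuclear members (ND5, ATP5S and NDUFS1). ATP5F1B had a log2 fold change of −0.30 (limma adjusted p = 0.661), and of −0.51 (limma adjusted p = 0.0346) without the cervical library of treated animal 4. That library held the highest cervical value of ATP5F1B and was left out after seeing it, so the second adjusted p cannot serve as a test. The difference in treatment effect between lumbar and cervical ganglia was −0.37 ± 0.22 for ATP5F1B on the log2 scale (SE; limma adjusted p = 1), and no member of 64 passed that test.

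Across the 6 tissues, ND5, ND6, ATP5S and NDUFS1 had negative log2 fold changes in each, and COX2, COX7A1, ATP5F1C, ATP5MG, NDUFA8 and NDUFB1 positive ones in each. ND5 lay between −0.34 and −1.27, and ND6 between −0.19 and −1.10. In the tissue with the least change, NDUFS1 stood at −0.003 and ATP5MG at 0.002. COX7A1 in liver changed sign without control animal 4 and treated animal 4. The share of all genes with the same sign in all 6 tissues is not given here. The tissues share animals, so these are not separate observations. In lumbar cord COX2 turned from 0.42 to −0.24 without control animal 4 and treated animal 4.

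Within the nuclear members, genes with short exonic sequence tended to have higher log2 fold changes than genes with long exonic sequence. In thoracic cord the medians were close, 0.324 for members up to 752 bases and 0.303 for longer ones. Spearman's rho between exon length and the log2 fold change was −0.414 over the 50 members in liver. It was −0.535, −0.345 and −0.642 over 51 members in cervical, thoracic and lumbar cord, and −0.641 and −0.410 in cervical and lumbar ganglia. Over all genes it was 0.115 in liver, −0.335, −0.340 and −0.295 in cord, and −0.276 and 0.054 in ganglia. The counts of members shorter than 752 bases divided by those of longer members were 0.428 to 0.459 in control livers and 0.456 to 0.479 in treated livers. In lumbar ganglia the ratio was 0.430 to 0.495 in controls and 0.469 to 0.573 in treated animals. In cervical ganglia it was 0.422 to 0.474 in controls and 0.462 to 0.967 in treated animals, with treated animal 4 highest. The highest values of all tissues were in thoracic cord, with 0.663 to 1.27 in controls and 0.736 to 1.17 in treated animals, and the highest library there was control 4. These are genes of 1 table and libraries that share depth and animals, so the values are a description.

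**Figure D4:**
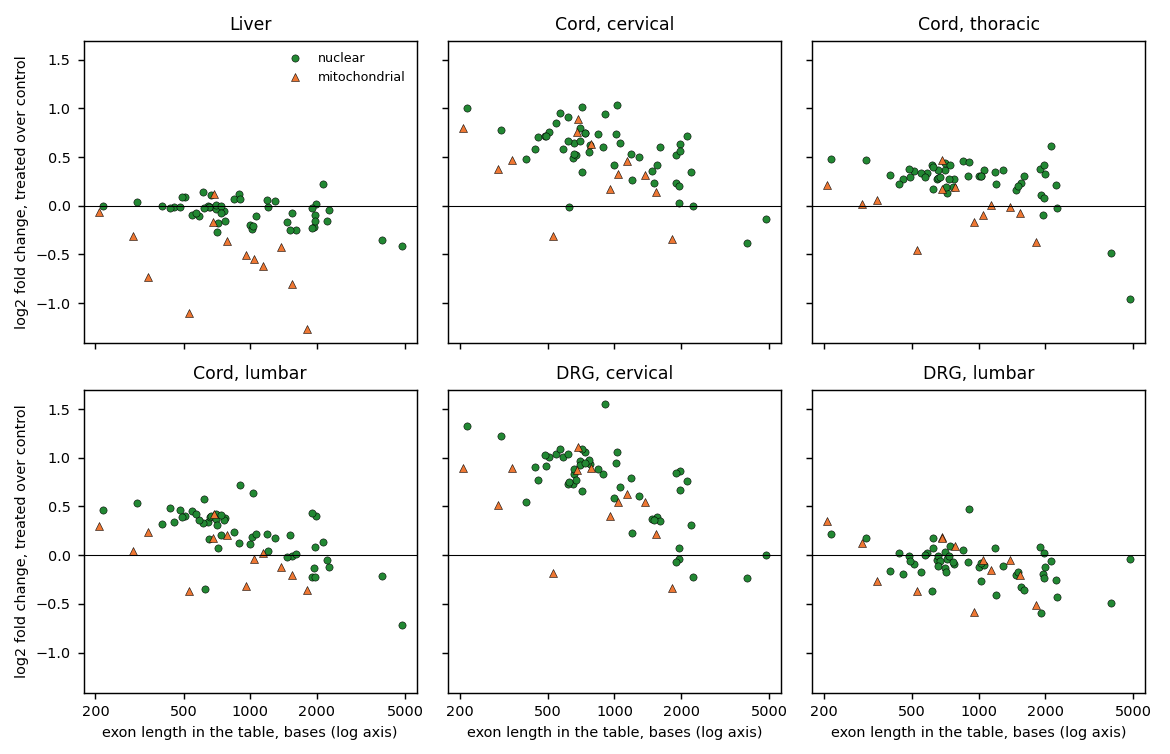
Log2 fold change of treated over control against exon length (bases, log axis) for each member, in 6 tissue panels. Circles are nuclear and triangles mitochondrial members. Among the circles, shorter genes tend to lie higher, with Spearman's rho from −0.345 in thoracic cord to −0.642 in lumbar cord.

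Between tissues, the levels of the nuclear subunits relative to each other set liver apart through complex II. SDHB, the iron-sulphur subunit that passes electrons from succinate, and SDHD together made up 8.71% ± 0.617 of the counts of nuclear members in control liver (SD, n = 4), and 3.50% to 4.05% in the 5 nervous tissues. Their ranges did not overlap, 8.27% to 9.62% in liver against 2.67% to 4.64% elsewhere. Complex I made up 32.3% ± 0.309 in liver and 37.7% to 40.9% in the nervous tissues. Complex V made up 43.7% ± 0.654 in liver and 35.5% to 42.4% elsewhere. It was the largest part in every tissue but thoracic cord, where complex I was larger. All of these percents cover only the subunits that the count table names.

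In edgeR on the 24 control libraries with the animal as a block, 72.2% of 15008 genes differed between liver and cervical cord. Of the 52 nuclear members 44 were higher and 2 lower in liver, and of the 13 mitochondrial members 3 were higher (ATP6, ND5 and ND6). The median log2 difference was 1.08 for nuclear and 0.79 for mitochondrial members, but −0.08 and −0.37 with total counts as the scale, which moved the median of all genes to −1.36, so the direction for the groups as a whole depends on the scaling. In the 24 treated libraries, fitted without an animal block, 11 members were called in place of 49. SDHD and SDHB were higher in control liver by log2 differences of 2.40 ± 0.14 and 2.36 ± 0.26 (SE; edgeR adjusted p = 9.38e-11 and 2.72e-07), and by 1.24 and 1.20 with total counts as the scale. In the treated libraries these differences were 1.92 and 1.73, and both were called by edgeR. COX7A1, the heart and muscle form of a small complex IV subunit, was higher in liver by 2.53 ± 0.36 over cervical cord and by 3.39 ± 0.37 over cervical ganglia on the log2 scale (SE), and by 1.36 and 2.18 with total counts as the scale.

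Cervical ganglia differed from cervical cord in 44.2% of genes, and 13 nuclear members were higher and 1 lower, while ND2 was the only mitochondrial member called, lower in ganglia. ATP5F1B was higher in ganglia by 1.06 ± 0.29 on the log2 scale (SE; edgeR adjusted p = 0.0071). COX7A1 was lower in ganglia by a log2 difference of −0.86 ± 0.34 (SE; edgeR adjusted p = 0.0488), and by 0.01 higher in the treated libraries. Only 1 member was called between these tissues in the treated libraries, and 0 to 30 when single control animals were left out. Between liver and cervical ganglia 71.4% of genes differed, with 12 mitochondrial members and 22 nuclear members higher in liver and 4 nuclear members lower; with total counts as the scale the nuclear median turned from 0.56 to −0.62 and the mitochondrial median from 1.24 to 0.05.

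Several tissue forms of complex IV subunits were high in single animals. COX6B2, the testis form of a complex IV subunit, at 19:56197309-56198695 on the minus strand, was 25.3 CPM of total counts in the cervical ganglia of control animal 4, 21.2 CPM in its lumbar ganglia and 3.95 CPM in its lumbar cord. In its cervical cord it was 0.25 CPM, and every other library held 0.10 CPM or less. COX4I2, a lung form of subunit 4, was 0 to 0.12 CPM in liver and 0.58 to 6.29 CPM in the nervous tissues. NDUFA4L2 was highest in lumbar cord control 1, with 56.4 CPM, one of the libraries nearly free of MOG. COX7A1 in treated animal 4 was 46.99, 77.8 and 52.7 CPM from cervical to lumbar cord and 70.7 CPM in cervical ganglia, the highest treated value in each. Thoracic control 4 and treated 1 were also high, with 62.7 and 59.4 CPM. COX7A1 was not alone in this: COX6A1, the widely expressed partner of COX6A2, was 731.9 CPM in the cervical ganglia of treated animal 4 against 115.3 to 162.8 CPM in the other 7 libraries, and COX7B and COX8A were 703.7 and 744.5 CPM there against at most 176.3 and 145.1 CPM. COX6A2, the heart and muscle form of another small subunit, reached at most 0.584 CPM, and COX7B2 at most 0.347 CPM. Where paralogues are similar in sequence, the division of reads between forms depends on the counting.

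**Figure D5:**
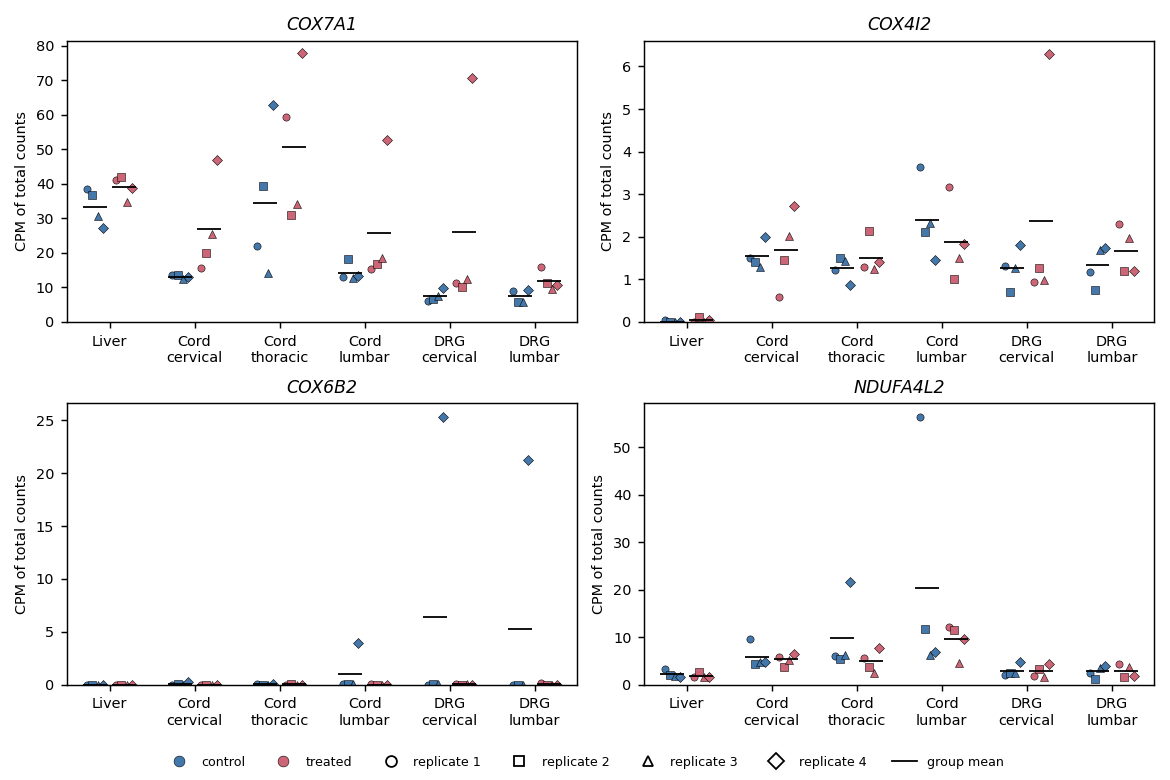
COX7A1, COX4I2, COX6B2 and NDUFA4L2 in every library as CPM of total counts, by tissue. Points are libraries with markers by replicate number and lines are group means (n = 4); COX6B2 is raised in control animal 4 alone, and COX7A1 is highest among treated libraries in animal 4 of the cord and cervical ganglia, with thoracic control 4 and treated 1 also high.

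Some genes around the respiratory chain passed the test in lumbar ganglia. In every other tissue fitted alone 0% of all genes passed, so no list could hold a call there. Of 15 enzymes of the tricarboxylic acid cycle 5 fell, OGDH and MDH2 among them, where 3.65% of all genes fell and 0.638% rose. OGDH, the entry enzyme from 2-oxoglutarate to succinyl-CoA, fell from 205.9 ± 18.2 to 124.9 ± 16.4 TMM-scaled CPM (SD, n = 4; log2 fold change −0.72 ± 0.12 SE, edgeR adjusted p = 0.0204). MDH2 fell by 0.63 on the log2 scale (edgeR adjusted p = 0.0284). Of 16 glycolytic genes 3 fell (PFKM, PFKP and PGAM1), and the median log2 fold change of the list was −0.44 against 0.05 over all genes. Of 42 assembly factors 1 rose (COX20) and 3 fell (ACAD9, UQCC1 and HIGD1A). Of 61 mitochondrial ribosomal proteins 2 fell (MRPS33 and MRPS7), a share close to that of all genes. Of 13 mitochondrial stress genes LONP1, a protease of the matrix, fell by 0.72 on the log2 scale (edgeR adjusted p = 0.016). TFAM had a log2 fold change of 0.40 ± 0.12 (SE; edgeR adjusted p = 0.102), and PPARGC1A, a regulator of mitochondrial biogenesis, one of 0.20 ± 0.19 (SE; edgeR adjusted p = 0.567). In the same libraries the summed general neuron markers were lower, through SNAP25 and STMN2, while the sensory neuron markers overlapped between the groups; the part of these lists was not tested.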

How the data were processed

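Poly(A) RNA of 48 libraries was sequenced as 50 base pairs on a HiSeq 2500 with a stranded kit, per the labels' protocols. The submitters' processing notes name STAR 2.5.3a as aligner. The file headers name featureCounts 1.4.6-p1 and Ensembl 94 of Macaca_fascicularis 5.0 as the source of the deposited table, whose unit is unnormalized counts for each gene name. The featureCounts command sets no strand and no paired counting, so each mate counted once and antisense reads were included. No column of the table was left out.

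Members and lists were chosen with earlier results of these data known. Of the 67 names, 52 were matched in the RefSeq gene table. Genes named are all mitochondrial members, nuclear members past an adjusted p of 0.05, the member of each complex with the smallest p, paired isoforms and a few regulators; other members are named for groups that did not overlap. Genes passing edgeR's expression filter were tested over the whole table with TMM scaling, sex as covariate and the quasi-likelihood test (edgeR 4.0.16, R 4.3.3), each tissue alone, with Benjamini-Hochberg adjustment. Cord counts were also summed per animal. The 2 ganglia levels were fitted together in limma voom 3.58.1 with the animal as random block (consensus correlation 0.718), since treated ganglia come partly from other animals. Tissues were compared on the 24 control libraries with the animal as block. DESeq2 1.42.0 was an alternative. Shares and percents of mitochondrial counts were computed from raw counts, CPM of total counts without TMM. The statistics were tested on simulated data with 200 changed genes and 1 dispersion for all genes. For changes of 1.5-fold edgeR recovered 0% of them in liver and 1% in lumbar ganglia. For changes of 2-fold it recovered 48.5% and 44%. A member that was not called may therefore still have changed. At 2-fold edgeR made 4 false calls in liver and 5 in lumbar ganglia. DESeq2 recovered 55% and 52.5% of the 2-fold changes, with 15 and 13 false calls. Control replicates have the same numbers as treated ones. The correlations of same-numbered libraries were all above 0.1 only in lumbar cord (0.192 to 0.919), where the block changed no call. Replicates are separate animals; no sequences are printed.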

Additional observations from a re-analysis of the deposited data

Results flagged for a closer look

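In 24 of 145 groups of 4 libraries, 1 library lay far from the other 3. The nominal rate of the rule is about 1 group in 20, which was not measured here, and the groups share libraries. The values follow with no explanation weighed.

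Control animal 2 had the highest mitochondrial share in liver, 11.8%, and the highest ratio of the genomes, 26.8. In cervical ganglia the nuclear share was 0.507% in 1 control and 1.84% in treated animal 4.

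Of the mitochondrial messages, as a percent of mitochondrial counts, ND5 was 2.48% in 1 treated lumbar cord and 6.20% in 1 control lumbar ganglion. ND6 was 2.21% in 1 treated cervical cord (2.205), 0.866% in 1 treated lumbar cord and 2.21% in 1 control lumbar ganglion (2.208). COX1 was 12.2% in thoracic control 4. COX3 was low in control animal 3, with 10.9% in cervical cord, 10.7% in lumbar cord and 12.1% in lumbar ganglia.

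Of the tissue forms, in CPM of total counts, COX6B2 in control animal 4 was 3.95 in lumbar cord, 25.3 in cervical ganglia and 21.2 in lumbar ganglia. COX7A1 was 18.3 in lumbar cord of control 2, and in treated animal 4 it was 52.7 in lumbar cord and 70.7 in cervical ganglia. NDUFA4L2 was 2.58 in 1 treated liver, 9.69 in 1 control cervical cord, 21.6 in 1 control thoracic cord and 56.4 in lumbar cord of control 1. COX4I2 was 6.29 in 1 treated cervical ganglion library.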

How the results depend on the processing

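The TMM scale was compared with total counts after seeing the data, as were the fits without control animal 4 and treated animal 4, without the 2 lumbar cord libraries nearly free of MOG, and without the cervical library of treated animal 4.

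With total counts the median log2 fold change of all genes tested moved by over 0.1 in liver (to 0.18), lumbar ganglia (0.24), both ganglia together (0.16), and in liver over cord (−1.36) and over ganglia (−1.35).

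Calls of members, in libraries fitted by tissue. In liver DESeq2 called 4 against 0 in edgeR. In cervical ganglia 1 was called without animals 4, against 0. In lumbar ganglia 1 was called, against 6 in DESeq2, 2 without the sex term, 0 with the replicate block, 0 in 1 fit of all 48 libraries, 2 with total counts and 0 to 1 with single libraries left out. All genes called there numbered 612, against 1628 in DESeq2, 206 with the block, 64 in the fit of 48 and 1843 with total counts. With the ganglia together 0 was called, against 1 without the animal block and 0 to 1 with single animals left out. Between tissues, liver over cervical cord had 49 members called, 11 in treated libraries and 17 with total counts. Cervical ganglia over cord had 15, against 9 without the replicate block, 2 with only the 8 libraries of these tissues, 1 in treated libraries, 26 with total counts and 0 to 30 without single animals. Liver over ganglia had 38, against 9 in treated libraries and 19 to 39 without single animals. The cause was not tested.

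Median log2 fold changes of mitochondrial members. Liver had −0.50, with −0.63 to −0.26 without single libraries. Thoracic cord had 0.0065 and −0.36 to 0.67, and cord summed per animal 0.20 and −0.21 to 0.40. Lumbar cord had 0.02, with −0.42 without animals 4 and −0.36 to 0.17 without single libraries. Cervical ganglia had 0.55, with 0.0348 without animals 4 and 0.17 to 0.91 without single libraries. Lumbar ganglia had −0.05, and 0.14 with total counts. The ganglia together had 0.28 and −0.0092 to 0.42 without single animals. Liver over cord had 0.79, with −0.14 in treated libraries and −0.37 with total counts. Liver over ganglia had 1.24, with 0.24 in treated libraries and 0.0488 with total counts.

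Median log2 fold changes of nuclear members. Liver had −0.03, and 0.15 with total counts. Lumbar cord had 0.31, with −0.24 without animals 4 and −0.22 to 0.59 without single libraries. Cervical ganglia had 0.83, with 0.63 in limma voom, 1.04 without the sex term, 0.56 with the replicate block, −0.10 without animals 4 and −0.0023 to 1.06 without single libraries. Lumbar ganglia had −0.08, with 0.11 with total counts and −0.13 to −0.0564 without single libraries. Thoracic cord had 0.30 and 0.0454 to 0.82, and cord summed per animal 0.47 and 0.0892 to 0.63. The ganglia together had 0.34, with 0.58 on counts summed per animal and −0.0568 to 0.47 without single animals. Liver over cord had 1.08, with 0.36 in treated libraries and −0.0768 with total counts. Liver over ganglia had 0.56, with −0.26 in treated libraries and −0.62 with total counts.

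Shares, treated minus control in percentage points. On TMM-scaled CPM the nuclear share in liver was −0.0262 against 0.0295, in cervical ganglia 0.420 against 0.351 and in lumbar ganglia −0.0723 against 0.0106, and the mitochondrial share in lumbar ganglia −0.594 against 0.702. Without single libraries, lumbar cord ran from −2.83 to 3.21 (mitochondrial) and −0.0623 to 0.189 (nuclear), and cervical ganglia from 2.05 to 7.14 and 0.0564 to 0.451. The log2 ratio ran from −0.24 to −0.0557 in lumbar cord and −0.0744 to 0.19 in cervical ganglia.

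Single genes that changed sign, none of them called by edgeR in either setting except COX7A1 between ganglia and cord. Without animals 4, COX7A1 in liver turned to −0.0295; in lumbar cord COX2, ND3 and CYTB turned to −0.24, −0.47 and −0.48; in cervical ganglia ND1, COX1, ND3 and CYTB turned to −0.32, −0.22, −0.0871 and −0.0431. With total counts, ATP6 in liver turned to 0.0151 and CYTB in lumbar ganglia to 0.0413. In treated libraries, cervical ganglia over cord, COX7A1 was 0.0122 and COX4I2 0.53. Without single libraries, ND2 and ND4 in thoracic cord ran from −0.41 to 0.58 and −0.48 to 0.67. In lumbar cord COX2, COX3, ND3 and CYTB ran from −0.18 to 0.67, −0.31 to 0.48, −0.46 to 0.51 and −0.48 to 0.29. In cord summed per animal ND3 and CYTB ran from −0.23 to 0.62 and −0.24 to 0.43, and with the ganglia together ND3 from −0.18 to 0.52.

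Correlations of same-numbered libraries were all above 0.1 only in lumbar cord, where control 1 and treated 1 are also the libraries nearly free of MOG. They ran from −0.24 to 0.598 in thoracic cord (mean 0.292) and from 0.048 to 0.186 in liver. Besides the values above, the replicate block changed no count of members.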
